A study of Mus musculus with 6 samples.

Results

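Gluconeogenesis and fructose metabolism were followed through 9 genes, Pck1, Pck2, Pcx, Fbp1, G6pc, Slc37a4, Khk, Slc2a2 and Slc2a5, out of 46603 genes in a table of raw read counts. The genes were taken by symbol from a list drawn up with earlier results of these data known. Counts came from RNA-Seq of 6 libraries, 1 per mouse, made from polyadenylated RNA of cells drawn from the kidney with magnetic beads against CD11B, the integrin alpha M chain of monocytes, macrophages and granulocytes. All 6 mice were males of 10 to 12 weeks with bilateral ischemia-reperfusion injury (IRI-AKI), in which the renal pedicles were clamped for 28 minutes, and all were killed on day 3. The 3 PTEC DN RAR mice carried PEPCK-Cre and the Rosa26-LSL-RARaT403X allele, and the 3 Cre- control mice carried that allele without Cre. RARaT403X is a truncated retinoic acid receptor alpha that acts as a dominant negative on all 3 retinoic acid receptors once Cre has removed the stop cassette, and the study bred it to homozygosity. PEPCK-Cre drives recombination in proximal tubule epithelial cells (PTECs), so the allele was not directed at the CD11B+ cells that were sequenced. The comparison addressed how the RNA of the CD11B+ preparation differed when RAR signaling was blocked in the neighbouring PTECs.

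Gluconeogenesis rebuilds glucose from lactate, glutamine and other small molecules. Pyruvate carboxylase makes oxaloacetate, phosphoenolpyruvate carboxykinase (PEPCK) turns it into phosphoenolpyruvate, fructose bisphosphatase removes a phosphate further along, and glucose-6-phosphatase frees glucose in the endoplasmic reticulum. Fructose enters cells through hexose transporters and is phosphorylated by ketohexokinase. In the kidney these steps are known as a property of the proximal tubule, whereas macrophages and granulocytes are known for glycolysis. Pck1 is also the gene whose regulatory DNA gives PEPCK-Cre its name, and the count table holds no separate line for Cre or for the transgene. Whether transgene reads reach the Pck1 count was not tested.

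All 9 genes passed the filter on low counts, with between 72 reads (Slc2a5) and 11805 reads (Pck1) per library. Of the 9, 8 were higher and 0 lower in PTEC DN RAR at an adjusted p under 0.05 (edgeR's quasi-likelihood test, Benjamini-Hochberg adjustment over 15440 genes), and for the same 8 all PTEC DN RAR libraries lay above all control libraries. Of these, 7 (all but Khk) were at least 2-fold higher. Among all 15440 genes tested, 23.6% were called higher, 17.1% lower and 14.4% higher by at least 2-fold, and for 29.2% all PTEC DN RAR libraries lay above all controls. The median log2 fold change was 1.93 for the 9 genes and 0.04 for all genes. When libraries were scaled on 20 pan-leukocyte genes in place of TMM, the median of all genes moved to 0.25 and the calls over all genes went from 3640 higher and 2636 lower to 4902 higher and 733 lower. That scaling raises all log2 fold changes by about the same amount, since 7 of the 20 genes were lower and 0 higher (median -0.19), so it could not have taken away a rise of the 9 genes. Levels are given as CPM, counts scaled to a common library size with TMM factors, in the order of replicates 1, 2 and 3. Errors are SD over 3 mice for levels and standard errors (SE) for log2 fold changes.

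The preparations held RNA of kidney epithelium in both genotypes. Itgam, which encodes CD11B itself, was at 1897 ± 139 CPM in controls and 1216 ± 207 CPM in PTEC DN RAR, and Csf1r, a macrophage receptor, at 3406 ± 161 and 3363 ± 232 CPM. Of 10 CD11B+ myeloid markers 0 were higher and 4 lower, with a summed level of 23358 to 25607 CPM in controls and 16884 to 19755 CPM in PTEC DN RAR. Of 6 markers each of infiltrating monocytes and of neutrophils 5 were lower, with median log2 fold changes of -0.91 and -1.27. Proximal tubule markers moved the other way. Of 16 listed, 15 could be tested (Slc22a7 reached at most 12 reads in a library) and all 15 were higher, with a median log2 fold change of 1.75 and a summed level of 715 to 955 CPM in controls and 2296 to 3521 CPM in PTEC DN RAR. None of the 15 was at 0, and the endocytic receptor gene Lrp2 stood at 75.6 ± 20.2 and 240 ± 63.3 CPM. Markers of other kidney cells moved with them, with 5 of 5 thick ascending limb markers (summed level 1009 to 1415 against 3492 to 6778 CPM), 4 of 4 distal convoluted tubule markers (145 to 179 against 635 to 1115 CPM), 6 of 6 endothelial markers (61.5 to 91.4 against 180 to 218 CPM), 4 of 5 podocyte markers and 3 of 6 collecting duct markers higher. Mitochondrial transcripts took 5.04% to 8.77% of counts in controls and 10.38% to 12.08% in PTEC DN RAR, and library totals ran from 29318041 to 46517005 counts. The part of proximal tubule RNA, and of mitochondrial share, in the changes of the 9 genes was not tested, and in these bulk samples fewer cells of a type cannot be told apart from less RNA per cell.

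**Figure D1:**
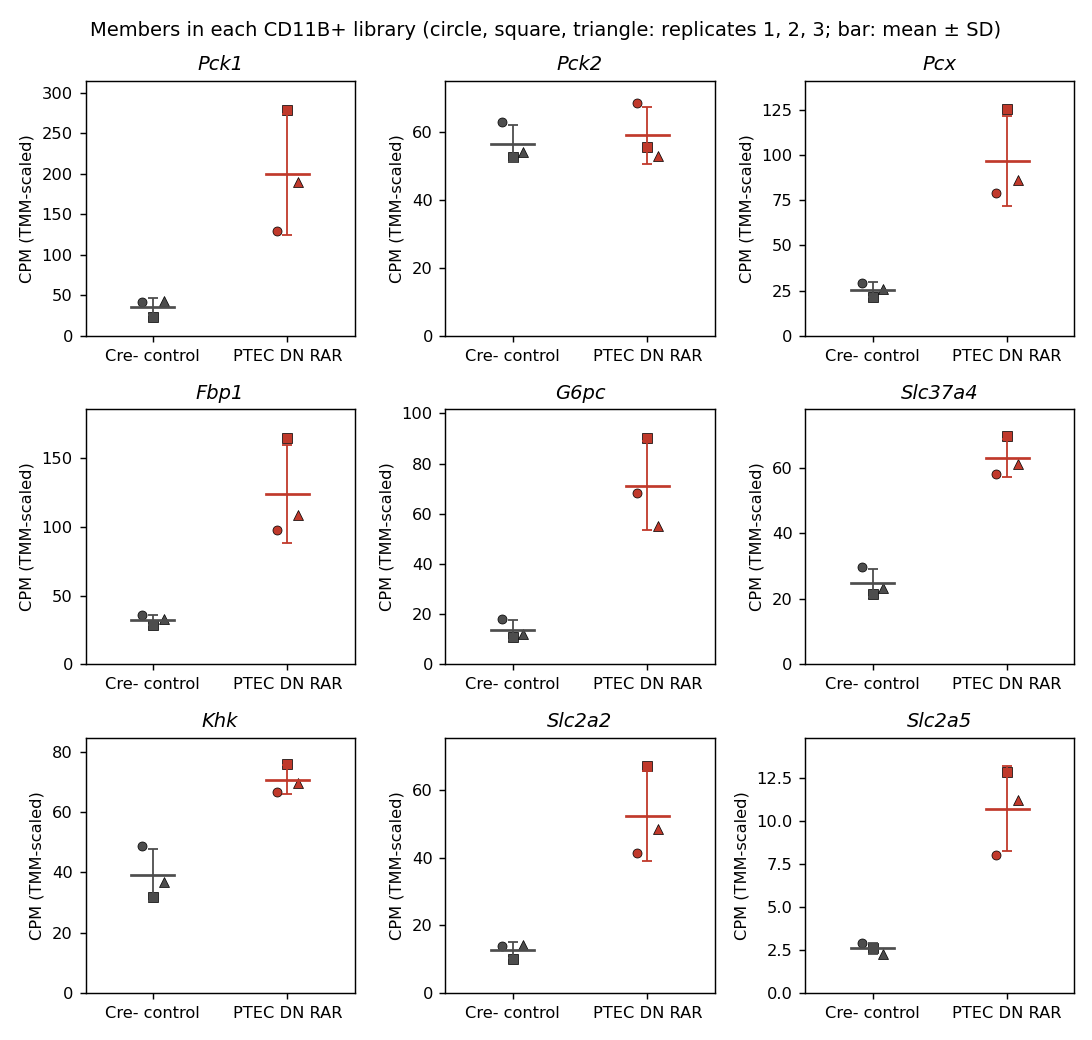
CPM of the 9 genes (vertical axes, linear from 0, TMM-scaled) in the 3 Cre- control and 3 PTEC DN RAR libraries, with the symbol shape giving the replicate and the bar and whiskers the mean ± SD. The genotypes are apart in 8 panels and overlap for Pck2, and replicate 2 is the highest PTEC DN RAR library for 8 of the 9 genes.

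The 2 PEPCK genes gave different results. Pck1 encodes the cytosolic enzyme, the regulated step of renal and hepatic gluconeogenesis, and Pck2 the mitochondrial enzyme, which many cell types use. Pck1 (ENSMUSG00000027513, GRCm38 chr2:173153048-173159273, plus strand) was at 42.2, 23.6 and 42.8 CPM in controls and at 130, 278 and 190 CPM in PTEC DN RAR. The lowest PTEC DN RAR library was thus above the highest control, though PTEC DN RAR libraries differed among themselves by up to 2.14-fold. The means were 36.2 ± 10.9 and 199 ± 74.6 CPM (n = 3 each), a log2 fold change of 2.46 (SE 0.31, adjusted p = 0.000716) or 5.50-fold, with a 95% confidence interval of 3.39 to 8.93. This was the largest fold change of the 9 and exceeded that of 99.0% of genes tested. Pck2 (ENSMUSG00000040618, chr14:55540266-55551242, plus strand) was at 62.8, 52.5 and 54.1 CPM in controls and at 68.4, 55.6 and 52.7 CPM in PTEC DN RAR. These values overlapped, with 1 PTEC DN RAR library above all controls and the other two within their range. Its log2 fold change was 0.06 (SE 0.12, adjusted p = 0.714), and the 95% confidence interval of the fold, 0.863 to 1.26, leaves out a change of the size seen in Pck1. An antisense gene, Gm10876, shares 53 exonic bases with Pck2, and without strand their reads cannot be told apart there. The other 8 genes share no exonic base with another annotated gene.

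The 2 PEPCK genes also differ in the DNA before their starts, which is printed here because their counts parted, with Slc2a2 as a gene that rose with Pck1. Each run comes from the RefSeq promoter windows on GRCm38.p6, 5′ to 3′ on the gene's strand, and stops before the first annotated base of the gene, so that 225 bases of Pck1 (chr2:173152823-173153047), 250 of Pck2 (chr14:55540016-55540265) and 250 of Slc2a2 (chr3:28697653-28697902) are shown. Capitals mark matches to motifs searched on both strands.
Pck1: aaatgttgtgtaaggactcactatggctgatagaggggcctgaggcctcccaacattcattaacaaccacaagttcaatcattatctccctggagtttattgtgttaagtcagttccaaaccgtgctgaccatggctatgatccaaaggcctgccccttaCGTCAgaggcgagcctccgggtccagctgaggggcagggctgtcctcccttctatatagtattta
Pck2: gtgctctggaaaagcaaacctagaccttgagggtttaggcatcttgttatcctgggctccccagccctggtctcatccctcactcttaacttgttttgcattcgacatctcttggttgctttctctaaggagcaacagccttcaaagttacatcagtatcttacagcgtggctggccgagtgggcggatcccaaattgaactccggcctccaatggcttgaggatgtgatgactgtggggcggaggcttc
Slc2a2: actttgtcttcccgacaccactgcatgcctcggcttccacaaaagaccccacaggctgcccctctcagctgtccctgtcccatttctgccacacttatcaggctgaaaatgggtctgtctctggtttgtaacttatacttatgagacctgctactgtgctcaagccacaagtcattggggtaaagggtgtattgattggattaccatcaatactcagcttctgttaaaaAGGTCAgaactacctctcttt
In the Pck1 run the capitals are a match to TGACG, the core of a cyclic AMP response element, read on the opposite strand. It begins 90 bases before the RefSeq start, which lies 25 bases past the end of the printed run. The Slc2a2 run has AGGTCA, the core recognition sequence of many nuclear receptors, beginning 21 bases before the start, and the Pck2 run has none of these motifs. The 9 genes have 12 windows, since some have several starts. AGGTCA was found in 3 of 12 (G6pc, Slc37a4 and Slc2a2) and TGACG in 4 of 12 (Pck1, Khk and 2 overlapping windows of Slc37a4 that share 1 such site). The E-box CACGTG was found in 2 of 12 (Pcx and Khk), and TATAAA, searched on the gene's strand alone, in 2 of 12 (G6pc and Slc37a4). Fbp1 and Slc2a5, which rose, had no match, as Pck2 had none. Of 32851 windows of the same length, 14.0% hold AGGTCA, 17.8% TGACG, 6.02% CACGTG and 7.59% TATAAA. These matches describe letters in a window and not bound sites.

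Pcx and Fbp1, on either side of the PEPCK step, rose almost equally. Pcx (ENSMUSG00000024892, chr19:4510472-4621752, plus strand), which encodes mitochondrial pyruvate carboxylase, was at 29.5, 21.4 and 25.8 CPM in controls and at 78.9, 125 and 86.2 CPM in PTEC DN RAR. Fbp1 (ENSMUSG00000069805, chr13:62864753-62888282, minus strand), which encodes fructose-1,6-bisphosphatase, was at 35.7, 28.6 and 33.1 CPM in controls and at 98.0, 165 and 109 CPM in PTEC DN RAR. Within each genotype both genes were lowest and highest in the same libraries. The log2 fold change was 1.92 (SE 0.19, adjusted p = 0.000309) for Pcx and 1.93 (SE 0.19, adjusted p = 0.000313) for Fbp1, or 3.78-fold and 3.82-fold.

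The last steps were measured through G6pc and Slc37a4. G6pc (ENSMUSG00000078650, chr11:101367561-101377903, plus strand), the catalytic subunit of glucose-6-phosphatase, was at 18.1, 10.9 and 12.0 CPM in controls and at 68.4, 90.0 and 55.0 CPM in PTEC DN RAR. Its log2 fold change of 2.37 (SE 0.23, adjusted p = 0.000305), or 5.18-fold, was next in size to that of Pck1, and their 95% confidence intervals overlapped (1.85 to 2.90 for G6pc and 1.76 to 3.16 for Pck1). Slc37a4 (ENSMUSG00000032114, chr9:44396852-44402968, plus strand) encodes the transporter that carries glucose-6-phosphate into the endoplasmic reticulum to this enzyme. It was at 29.8, 21.6 and 23.2 CPM in controls and at 58.3, 69.6 and 61.2 CPM in PTEC DN RAR, with a log2 fold change of 1.34 (SE 0.13, adjusted p = 0.000316). All PTEC DN RAR values of the transporter lay above the controls, by 2.53-fold in the fit, and its PTEC DN RAR libraries differed by at most 1.20-fold.

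Fructose metabolism was represented by Khk, Slc2a2 and Slc2a5. Khk (ENSMUSG00000029162, chr5:30921431-30931248, plus strand), ketohexokinase, was at 48.7, 31.8 and 37.0 CPM in controls and at 66.6, 76.1 and 69.7 CPM in PTEC DN RAR. Its rise was the smallest of the 8, with a log2 fold change of 0.85 (SE 0.15, adjusted p = 0.00292) or 1.81-fold, although no PTEC DN RAR library reached down to a control. Slc2a2 (ENSMUSG00000027690, chr3:28697903-28731359, plus strand) encodes GLUT2, which lets glucose and fructose across the basolateral membrane of the tubule. It was at 13.9, 10.1 and 14.2 CPM in controls and at 41.4, 67.0 and 48.5 CPM in PTEC DN RAR, a log2 fold change of 2.04 (SE 0.20, adjusted p = 0.000305). Slc2a5 (ENSMUSG00000028976, chr4:150119283-150144169, plus strand) encodes GLUT5, a fructose transporter, and had the fewest reads. It was at 2.92, 2.58 and 2.28 CPM in controls and at 8.004, 12.9 and 11.2 CPM in PTEC DN RAR, a log2 fold change of 2.04 (SE 0.21, adjusted p = 0.000347). Even the lowest of these, 2.28 CPM, was above the 0.0636 to 0.101 CPM that 3 reads are worth.

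**Figure D2:**
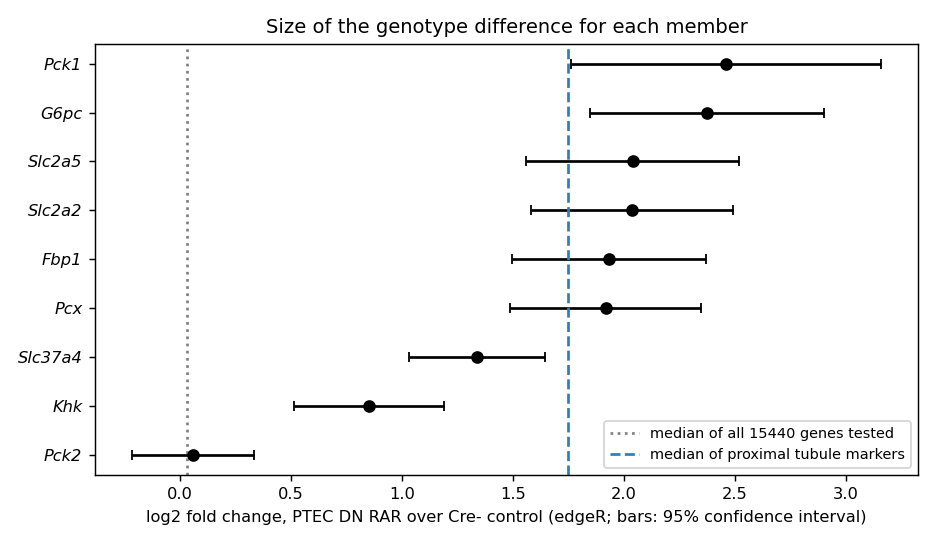
Log2 fold change (horizontal axis, PTEC DN RAR over Cre- control) of each of the 9 genes with its 95% confidence interval from edgeR, with the median of all 15440 genes (0.04, dotted) and of the 15 proximal tubule markers (1.75, dashed). Pck1 and G6pc lie farthest to the right at 2.46 and 2.37, Slc37a4 and Khk lie left of the marker median, and the interval of Pck2 spans 0.

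Per kilobase of the longest protein-coding transcript, the order of the levels changed with genotype. In controls the mean RPKM was 24.7 for Khk, 21.96 for Fbp1, 13.6 for Pck1, 12.2 for Pck2, 10.6 for Slc37a4, 6.16 for Pcx, 5.66 for G6pc, 2.28 for Slc2a2 and 0.822 for Slc2a5. Libraries overlapped between Khk and Fbp1, between Pck1 and Pck2, between Pck2 and Slc37a4, and between Pcx and G6pc, so these neighbours are not ordered beyond their spread. In PTEC DN RAR the mean RPKM was 83.9 for Fbp1, 74.9 for Pck1, 44.7 for Khk, 29.5 for G6pc, 26.9 for Slc37a4, 23.3 for Pcx, 12.7 for Pck2, 9.39 for Slc2a2 and 3.39 for Slc2a5. Here the overlapping neighbours were Fbp1 and Pck1, G6pc and Slc37a4, Slc37a4 and Pcx, and Pck2 and Slc2a2. Pck1 and Pck2 therefore overlapped in RPKM in controls (8.86 to 16.1 against 11.4 to 13.6) and were far apart in PTEC DN RAR (48.8 to 104.5 against 11.4 to 14.8). The place of Pck2 depends on the length used, 4625 bases for its longest protein-coding transcript or 7806 for all its annotated exons, and with the latter its mean RPKM was 7.23 in controls and 7.55 in PTEC DN RAR.

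Pairs of genes that act together or in sequence were compared within each library as the difference of their log2 CPM, which cancels any factor that scales both. A ratio of CPM is not a comparison of levels, because lengths differ, but its change with genotype is free of length. Of 6 pairs, 4 had ratios that did not overlap between genotypes, each with a two-sided exact permutation p = 0.1, which is the smallest that 3 against 3 libraries allow, so none could pass 0.05 before or after adjustment. These 4 are not independent, since all but Pck1 over Pck2 combine G6pc, Slc37a4 and Khk. The ratios restate how far the fold changes of the genes differ. The share of other gene pairs without overlap was not counted. Pck1 over Pck2 was 0.450 to 0.792 in controls and 1.90 to 5.001 in PTEC DN RAR, a difference of 2.39 in log2. G6pc over Slc37a4 was 0.508 to 0.608 in controls and 0.900 to 1.29 in PTEC DN RAR, a difference of 1.03 in log2. For G6pc over Khk the ranges were 0.325 to 0.373 and 0.790 to 1.18, and for Slc37a4 over Khk they were 0.613 to 0.679 and 0.875 to 0.915. The ranges of the remaining pairs overlapped. Fbp1 over Pcx was 1.21 to 1.33 in controls and 1.24 to 1.32 in PTEC DN RAR (exact permutation p = 1), and Slc2a2 over Slc2a5 was 3.85 to 6.11 and 4.30 to 5.19 (exact permutation p = 1).

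Because proximal tubule markers rose along with 8 of the 9 genes, each of the 9 was also given relative to them, as its log2 CPM minus the mean log2 CPM of the 15 markers in the same library. That mean was 5.22, 4.87 and 5.35 in controls and 6.55, 7.12 and 6.87 in PTEC DN RAR, a difference of 1.70. Relative to it, Pck1 was at 0.18, -0.31 and 0.07 in controls and at 0.47, 1.00 and 0.71 in PTEC DN RAR, higher by 0.74 with no overlap. Slc2a2 was also higher without overlap, by 0.32. Pck2 was at 0.76, 0.84 and 0.41 in controls and at -0.45, -1.32 and -1.14 in PTEC DN RAR, lower by 1.64 relative to the markers and without overlap. Khk, at 0.39, 0.12 and -0.14 in controls and at -0.49, -0.87 and -0.74 in PTEC DN RAR, was lower by 0.82 without overlap. Each of these 4 had an exact permutation p = 0.1, the smallest possible here. Because the marker mean itself rose by 1.70, a gene that stayed level or rose less falls on this measure. The falls of Pck2 and Khk thus restate their log2 fold changes of 0.06 and 0.85. They say nothing of levels within tubule cells. The differences of Pcx (0.20), Fbp1 (0.20), Slc2a5 (0.30), G6pc (0.68) and Slc37a4 (-0.35) came from overlapping groups. Without control replicate 3 the difference was 0.12 for Slc2a5, 0.12 for Fbp1 and 0.11 for Pcx, and without PTEC DN RAR replicate 2 it was 0.12 for Fbp1. Set against the others in the same way, single markers ranged from -1.03 (Slc13a3) to 0.96 (Slc22a8), and 8 of the 9 genes, all but Pck2, lay within that range. The range is wide. The shares of all genes within it, or apart between genotypes on this measure, were not counted. Neither count is therefore read as a result about the 9 genes. With 4 markers of the S1 and S2 segments as reference, 2 of them shared with the list of 15, Slc2a2 was at -0.0044, G6pc at 0.36 and Pck1 at 0.42. With 3 S3 markers as reference, Khk was at -0.14 and its groups overlapped (exact permutation p = 0.7), Pck2 was at -0.96, and Pck1 was at 1.43, G6pc at 1.37 and Slc2a2 at 1.01. These S3 markers were Slc7a13, which is also among the 15, Acsm3 and Cyp7b1. They stood at only 0.79 to 9.83 CPM, and Cyp7b1 was not called (log2 fold change 0.30, edgeR adjusted p = 0.54). A difference between segments was not tested.

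**Figure D3:**
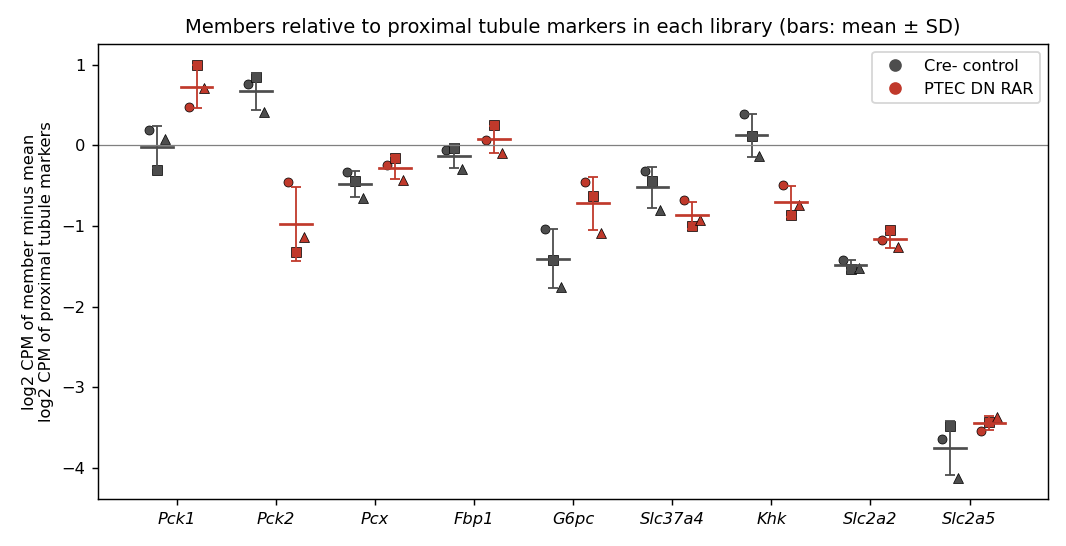
Log2 CPM of each gene minus the mean log2 CPM of 15 proximal tubule markers (vertical axis) in the 6 libraries, with the symbol shape giving the replicate and bars the mean ± SD of each genotype. Pck1 and Slc2a2 lie higher and Pck2 and Khk lower in PTEC DN RAR without overlap, while the other 5 overlap.

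The libraries of a genotype differed in a shared way. In PTEC DN RAR, replicate 1 was lowest for 7 of the 9 genes and replicate 2 highest for 8, and replicate 2 also had the highest mean of the proximal tubule markers. In controls, replicate 2 was lowest for 8 of the 9 genes and had the lowest mean of those markers. Control replicate 3 had the highest mean of those markers, yet it was highest for only 2 of the 9 genes. The shares of all genes with such extremes were not counted. The coefficient of variation in PTEC DN RAR was 37.4% for Pck1 and 6.85% for Khk, the extremes of the 9.

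Genes whose log2 CPM over the 6 libraries ran closest to that of Pck1 were found by the root mean square distance of centred values among 13020 genes with a mean of at least 1 CPM. The nearest were Rdh16 (distance 0.148), Slc16a4 (0.162), Aspdh (0.166), Tmem56 (0.169) and Adra2b (0.177). Rdh16, a retinol dehydrogenase gene, was at 3.02, 2.21 and 3.45 CPM in controls and at 11.7, 20.7 and 14.3 CPM in PTEC DN RAR. Adra2b, an adrenergic receptor gene, was at 3.59, 2.15 and 3.87 CPM and at 9.91, 20.6 and 12.5 CPM. As with Pck1, replicate 2 was lowest among controls and highest among PTEC DN RAR in each, which follows from choosing them by closeness over the same libraries. Of the other 8 genes followed here, Slc2a2 was closest to Pck1 at rank 23 (distance 0.274), G6pc, Pcx, Fbp1 and Slc2a5 stood at ranks 83, 87, 93 and 135, and Slc37a4, Khk and Pck2 at 654, 1631 and 6107. The nearest proximal tubule markers were Slc22a8, Slc34a1, Acsm2, Slc5a12 and Slc22a12, at ranks 26, 28, 31, 38 and 42. Of the other 8 genes, only Slc2a2 was closer to Pck1 than these markers. All remaining tested proximal tubule markers ranked from 143 (Slc22a6) to 2034 (Slc13a3), farther from Pck1 than G6pc, Pcx, Fbp1 and Slc2a5. The markers as a set were thus not closer to Pck1 than these genes. These distances describe 6 libraries that differ above all by genotype.

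Another 69 genes of the pathway and its surroundings were followed in 6 lists, of which 67 could be tested and the other two, with at most 5 reads in a library, could not. Of the 67, 29 were higher and 13 lower, with a median log2 fold change of 0.18 against 0.04 for all genes, of which 23.6% were higher and 17.1% lower. The share of falls was thus about that of all genes. Scaling on pan-leukocyte genes gave 32 higher and 5 lower. The falls went to 7 without control replicate 3 and to 8 without PTEC DN RAR replicate 1. The rises of these lists stood beside those of the proximal tubule, thick ascending limb and other kidney cell markers, whose part in them was not tested.

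Closest to the 9 genes was the list of their isoenzymes and neighbouring steps, where 9 of 12 were higher and 0 lower, with a median of 0.91. Picked after their values were seen, Glyctk (1.88), Gpd1 (1.77), Tkfc (1.15) and Sord (1.10), which handle glycerate, glycerol-3-phosphate, glyceraldehyde and sorbitol, were higher. G6pc3, the widely expressed glucose-6-phosphatase gene and picked in the same way, had the smallest called log2 fold change of its list at 0.39 (SE 0.12, adjusted p = 0.0307), against 2.37 for G6pc. Its call was lost without control replicate 2 or 3 or PTEC DN RAR replicate 1 or 3.

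Reactions that run both ways between glycolysis and gluconeogenesis gave 3 of 10 higher, 3 lower and a median of -0.22, counts not far from the shares of all genes. Mdh1, cytosolic malate dehydrogenase, went from 257 ± 10.5 to 439 ± 22.1 CPM (log2 fold change 0.78, SE 0.09, adjusted p = 0.000436), and Pgam1 from 9.91 ± 0.52 to 6.29 ± 1.15 CPM (log2 fold change -0.65, SE 0.16, adjusted p = 0.0126). Reads that map to more than 1 place were left out, so Pgam1, Pgk1, Eno1 and Gapdh, which have processed copies in the genome, are uncertain here, and all 3 falls of this list (Pgam1, Pgk1 and Eno1) lost their call under pan-leukocyte scaling.

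One-way steps of glycolysis run against the one-way steps of gluconeogenesis. Of 11 genes 3 were higher and 5 lower, with a median of -0.22. Pklr, the pyruvate kinase gene of liver, kidney and red cells, went from 1.94 ± 0.75 to 6.79 ± 1.73 CPM (log2 fold change 1.79, SE 0.32, adjusted p = 0.00307). Pkm, the pyruvate kinase gene of most other cells, had a log2 fold change of -0.64 (SE 0.13, adjusted p = 0.005) and was picked after its value was seen, as were the hexokinase genes Hk2 (-0.72), Hk3 (-0.61) and, in the other direction, Hk1 (0.53, adjusted p = 0.018). The muscle-type phosphofructokinase gene Pfkm (1.11) also rose and the liver-type gene Pfkl (-0.44) fell. The call of Hk1 was lost without control replicate 2 or 3 or PTEC DN RAR replicate 1 or 3, and that of Pfkl under pan-leukocyte scaling. The fall of Pfkfb1, from 1.79 ± 0.05 to 1.07 ± 0.07 CPM (log2 fold change -0.74, SE 0.22, adjusted p = 0.0291), lost its call when any single library was left out, whereas the falls of Hk2, Hk3 and Pkm kept theirs under all 13 alternatives. These falls, and those of Ldha and Cebpb given next, stood beside the falls of the monocyte and neutrophil markers, whose part in them was not tested.

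Precursor supply gave 5 higher and 2 lower of 13, with a median of 0.18, and its share of falls was about that of all genes. Ldhb, the lactate dehydrogenase subunit of oxidative tissues, went from 86.7 ± 22.4 to 269 ± 52.8 CPM (log2 fold change 1.63, SE 0.20, adjusted p = 0.000663). Its PTEC DN RAR libraries were at 265, 219 and 324 CPM. The mean log2 CPM of the 5 thick ascending limb markers (7.18, 6.51 and 7.38) had the same order, as did Hk1 and Pfkm. So did the means of distal convoluted tubule markers (6.10, 5.71 and 6.73) and collecting duct markers (5.32, 4.73 and 5.79). Pkm, which fell, had this order too (660, 520 and 717 CPM). In controls Hk1 and Pfkm did not follow the order of the thick ascending limb markers. The source of these rises was not tested. Ldha, the other lactate dehydrogenase subunit, went from 424 ± 16.2 to 268 ± 13.1 CPM (log2 fold change -0.66, SE 0.08, adjusted p = 0.00079).

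Regulators of gluconeogenic genes gave 4 higher and 2 lower of 12, with a median of 0.12, not far from the shares of all genes. Ppara, the fasting-responsive nuclear receptor, went from 1.23 ± 0.56 to 5.82 ± 1.17 CPM (log2 fold change 2.23, SE 0.32, adjusted p = 0.00126). Other rises included Ppargc1a (1.94) and Hnf4a (1.94), named after their values were seen. Cebpb, which myeloid cells also use, went from 264 ± 56.1 to 145 ± 16.2 CPM (log2 fold change -0.86, SE 0.16, adjusted p = 0.00391).

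Among 9 other hexose transporters 5 were higher and 1 lower, with a median of 0.42. Slc5a10, a sodium-coupled transporter gene of the tubule, went from 1.48 ± 0.62 to 7.92 ± 2.93 CPM (log2 fold change 2.43, SE 0.37, adjusted p = 0.00166). Slc2a1, which encodes the widely used GLUT1, went from 118 ± 16.8 to 87.5 ± 13.5 CPM (log2 fold change -0.43, SE 0.14, adjusted p = 0.0399), a call lost under pan-leukocyte scaling (log2 fold change -0.21, adjusted p = 0.347). Slc5a2, which encodes SGLT2 and is also 1 of the 4 markers of the S1 and S2 segments, had a log2 fold change of 2.24 (adjusted p = 0.000275) and was named after its value was seen.

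**Figure D4:**
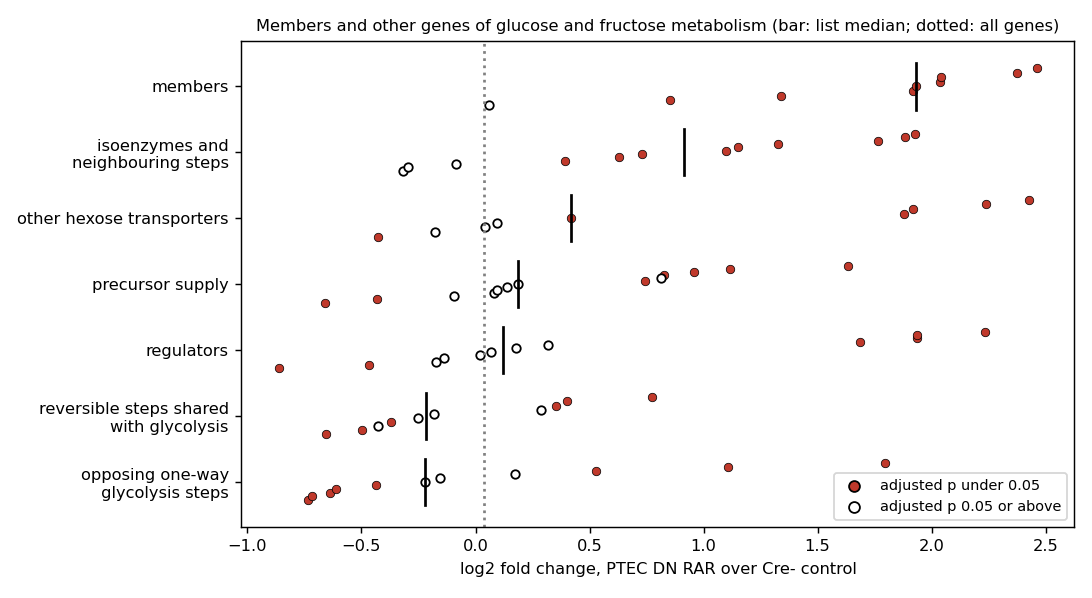
Log2 fold change (horizontal axis, PTEC DN RAR over Cre- control) of each tested gene in the 9-gene group and the 6 pathway lists, filled where adjusted p was under 0.05, with a bar at each list's median and a dotted line at the median of all genes. The 9 genes (median 1.93) and the isoenzyme list (0.91) lie to the right of 0.04, and the lists of shared and one-way glycolysis steps have medians of -0.22.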

How the data were processed

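CD11B+ kidney cells of 3 PTEC DN RAR and 3 Cre- control mice were sequenced by the authors, who deposited raw read counts per Ensembl gene without normalization. The submitters' processing notes name STAR 2.5.0a, HTSeq 0.6.1, edgeR, limma and GRCm38. HTSeq counts leave out reads aligned to several places (42.93% to 47.75% of each library's total), which lowers counts of genes that have near-identical copies. Whether counting used strand is not given in the sources used here. The 5 lines naming no gene were set aside, and 9 repeated identifiers were collapsed, leaving 46603 genes. No 2 libraries of a genotype agreed within sampling noise (chi-square per degree of freedom at least 29.57). The labels give 1 library per mouse.

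After filterByExpr and TMM scaling, the counts of 15440 genes entered glmQLFit and glmQLFTest of edgeR 4.0.16 under R 4.3.3, and p values were adjusted over all of them by the Benjamini-Hochberg method. Log2 CPM used a prior count of 2. Values of single genes and ratios were compared by exact permutation (two-sided), for which 0.1 is the smallest p. Alternatives used DESeq2 1.42.0, limma 3.58.1 (voom), other filters and scalings, the replicate number as a block, and each library left out. Transcript lengths and coordinates came from GENCODE M21 on GRCm38, and promoters from RefSeq on GRCm38.p6, in which all 9 genes were found. Scripts were tested on simulated data. The 9 genes, the lists and the tests were chosen with earlier results of these data known. Genes named are the 9, the largest called rise and fall of each pathway list, the 5 closest to Pck1, and defining markers. Some genes that this rule or the lists hold are not reported here. Reads carry no molecular identifiers, so the worth of 3 reads covers counting error only.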

Additional observations from a re-analysis of the deposited data

How the results depend on the processing

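Among the 9 genes, 8 were higher and 0 lower under all 13 alternatives to the edgeR fit (pan-leukocyte scaling could only add to the rises), with log2 fold changes of 2.14 to 2.69 for Pck1, 2.17 to 2.63 for G6pc and 0.68 to 1.07 for Khk, whose adjusted p reached 0.0195 at most. Pck2 was called under none of them. Its log2 fold change ran from -0.0625 to 0.14 when single libraries were left out, being below 0 without control replicate 2 (-0.03), control replicate 3 (-0.02) or PTEC DN RAR replicate 1 (-0.0625), and was 0.26 under pan-leukocyte scaling. With a replicate block, Pck1 was at 2.42 and Pck2 at 0.06, and the block changed no call of the 9 genes. Over the 67 pathway genes it gave 30 higher and 13 lower, and the fall of Pfkfb1 lost its call. Deviations of same-numbered libraries correlated at -0.01, 0.21 and 0.03, and control replicate 1 correlated best with PTEC DN RAR replicate 3 (0.15), so the numbers were not taken to pair the mice. The count of all genes higher was 3612 and of all genes lower 2606 with the block.

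Scaling on pan-leukocyte genes lowered the counts of falls, to 0 for the reversible steps, 3 for one-way glycolysis, 1 for precursor supply, 1 for regulators, 0 for hexose transporters and 733 for all genes, by construction of a shared shift. Leaving out single libraries gave 1 to 3 rises and 1 to 4 falls in the reversible steps, 0 to 1 falls in the isoenzyme list, 1 to 2 in precursor supply, 1 to 2 in regulators and 0 to 1 in hexose transporters. The rises of the reversible steps went to 1 without control replicate 2 or PTEC DN RAR replicate 3, and the falls to 1 without control replicate 3 or PTEC DN RAR replicate 2. The fall count of regulators or of precursor supply went to 1 without control replicate 3, PTEC DN RAR replicate 1 or PTEC DN RAR replicate 3, and that of precursor supply also without control replicate 2. The fall of Slc2a1 lost its call without either control replicate 1 or 3 or PTEC DN RAR replicate 1 or 2, and the added fall of the isoenzyme list appeared without PTEC DN RAR replicate 3. The cause was not tested.

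Relative to S1 and S2 markers, the differences of Pcx (-0.13), Fbp1 (-0.13), Slc2a2 (-0.0044) and Slc2a5 (-0.0244) turned negative, and Slc37a4 was at -0.68. Relative to 3 S3 markers, Slc37a4 turned positive (0.34), and Pcx (0.89), Fbp1 (0.89) and Slc2a5 (0.99) moved up. Alternatives for the ratios and for length were added after the data were seen. Without single libraries, the log2 change ran from -0.14 to 0.19 for Slc2a2 over Slc2a5 (-0.02 without PTEC DN RAR replicate 1 and -0.03 without replicate 2) and from -0.0369 to 0.0332 for Fbp1 over Pcx. With 3 mice against 3, the exact tests cannot go below 0.1 and say nothing of stability.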
